A study of Homo sapiens with 14 samples.

Results

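Among 14 RNA sequencing libraries from UMUC3 xenografts, 3 stood out by the RNA level of genes that p53 switches on, and these 3 libraries are described here against the other 11. They were replicate 3 of the FASN knockdown, replicate 1 of the control after CSM and replicate 1 of the FASN knockdown after CSM, and values of the 3 are given in that order throughout. They were chosen by their mean log2 CPM of p53 target genes, the highest of the 14, with CDKN1A and MDM2 as markers. CPM, the count scaled to a common library total, was computed on edgeR's TMM-scaled totals. Every difference between the 3 and the 11 is therefore a description, with a fitted log2 fold change and its standard error (SE) and without a p-value, and it supports nothing about why the libraries differ.

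UMUC3 is a human bladder cancer cell line. The tumours grew in mice either from control cells, which by their titles carry a control short hairpin (sh), or from FASN knockdown cells, for which the labels name no method. FASN encodes fatty acid synthase. Before engraftment the cells were kept in regular medium or exposed to 10% cigarette smoke medium (CSM). Regular medium gave 3 control and 3 FASN knockdown libraries, CSM gave 4 of each, and the labels tie no library to an animal. The 3 libraries thus fell into 3 of the 4 groups, and no control library from regular medium was among them.

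p53 is a transcription factor that becomes active after DNA damage and other stress. It induces genes that stop the cell cycle, repair DNA and start cell death, and it also induces MDM2, the ubiquitin ligase that marks p53 for degradation, so that the response limits itself. The pathway is often lost in bladder cancer. In bulk tissue, fewer cells of a type and less RNA per cell cannot be told apart.

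The summed counts of the 3 libraries were 28092587, 34374093 and 28478738, inside the range of 15810287 to 45209466 of the other 11. FASN itself, the knockdown target, was at 366.4 to 571.2 CPM (median 422.8) in the 7 control-cell libraries and at 99.9 to 478.7 CPM (median 165.8) in the 7 libraries labelled as knockdown. The library labelled replicate 4 of the FASN knockdown after CSM held the 478.7 CPM, within the range of the control cells. Its FASN level thus went against its label. Genes of the p53 lists called for knockdown, given further below, went both ways there. EDA2R (0 CPM), CYFIP2 (0.244), GDF15 (0.061) and PERP (33.7) were below all control-cell libraries, and FAS (25.9) and TRIM22 (6.28) were within their range. FASN fell with knockdown by the edgeR quasi-likelihood test (log2 fold change -1.12, SE 0.27, adjusted p = 0.0296). This call was lost without the 3 libraries (-1.11, edgeR adjusted p = 0.133), with upper-quartile factors, the length offset, the TPM scale and the replicate block (-1.17, edgeR adjusted p = 0.0665), and in 11 of 14 fits that left out 1 library (edgeR adjusted p up to 0.126, without replicate 1 of the control after CSM). It was kept without replicate 4 of the FASN knockdown after CSM (-1.38, edgeR adjusted p = 0.00524). In the 3 libraries FASN was at 131.5, 455.7 and 219.5 CPM.

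Sequence at 4 promoters is shown because it holds the letters of a p53 binding motif near the transcription start. The motif is a pair of decamers of the p53 response element, with a spacer of 0 or 1 base, at most 2 mismatches and the central C and G of each decamer kept, and it reads alike on both strands. In windows of 300 bases around the RefSeq start (GRCh38.p14, all 4 genes on the plus strand) it was found in 187 of 35116 windows (0.533%), or for 184 of 27305 genes (0.674%). Of the 28 p53 target genes listed here, 23 had a window, and 4 of these 23 (17.4%) held a match. Of 84 further p53 targets, 71 had a window and 5 (7.04%) held a match. The sequences run 5′ to 3′ with the match in capitals, and positions count from 0 at the start, negative upstream. The MDM2 stretch, chr12:68808767-68809001, lies before the second MDM2 promoter inside the gene, which is known for its response to p53, and its match spans -94 to -75. The DDB2 match, chr11:47214979-47214999, spans 5 to 25 and had 0 mismatches with a spacer of 1 base. The AEN match, chr15:88621306-88621325, spans -34 to -15, and the FAS match, chr10:88991309-88991328, spans -122 to -103.
MDM2: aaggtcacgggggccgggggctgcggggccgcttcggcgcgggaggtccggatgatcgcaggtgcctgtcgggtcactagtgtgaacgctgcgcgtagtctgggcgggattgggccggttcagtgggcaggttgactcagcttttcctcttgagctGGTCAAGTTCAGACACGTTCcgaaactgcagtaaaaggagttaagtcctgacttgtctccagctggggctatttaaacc
DDB2: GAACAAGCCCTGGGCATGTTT
AEN: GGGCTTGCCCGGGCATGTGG
FAS: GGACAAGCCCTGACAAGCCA
A match of letters does not show binding, and a gene without one in this window can have its site elsewhere, as CDKN1A does. MDM2, DDB2 and AEN were among the genes that stood higher in the 3 libraries, and FAS, with a log2 fold change of 0.29 (SE 0.20), was not.

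The mean log2 CPM of the 26 tested p53 targets was 5.42, 5.40 and 5.20 in the 3 libraries. In the other 11 it ran from 4.02 to 4.60. The highest of the 11, 4.60 each, were replicate 2 of the FASN knockdown and replicate 3 of the control after CSM, and the lowest, 4.02 to 4.09, were replicates 2 to 4 of the FASN knockdown after CSM. The gap between the 3 libraries and the 11 was therefore wider than the whole range within either. This list was written with the 3 libraries known, and how many genes it shares with the one that chose them is not known, so its ranking restates the choice. Over 80 tested members of the further p53 target list, which shares no gene with the first, the same 3 libraries were highest. They were at 4.28, 4.32 and 4.20 against 3.79 to 4.11, a much narrower gap. Whether the list that chose the libraries held members of this one is not known either, so this ranking too is a description.

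**Figure D1:**
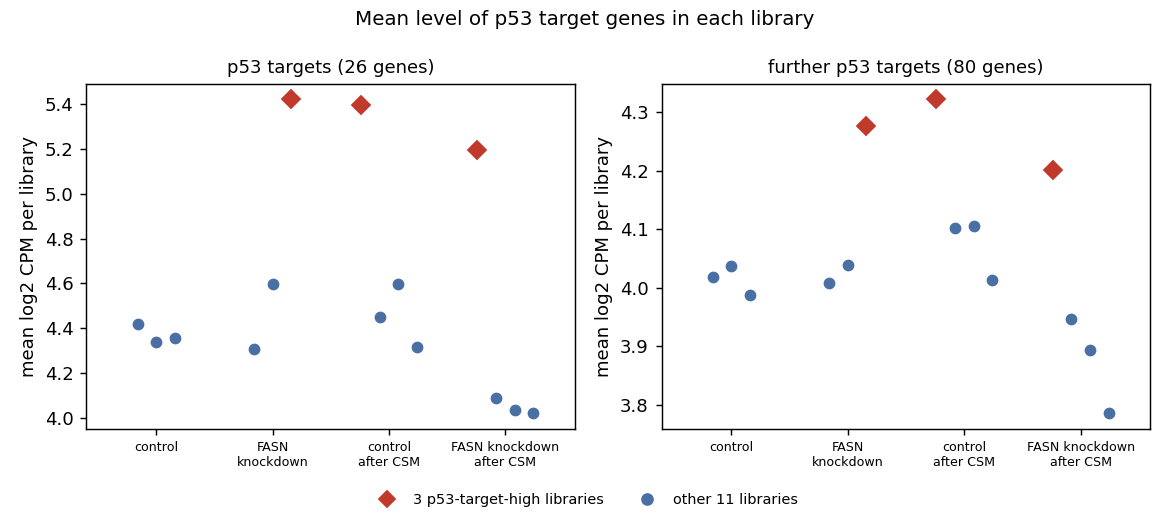
Mean log2 CPM of 26 p53 targets (left) and 80 further p53 targets (right) in each library, with 1 point a library and the 4 groups along the horizontal axis. Red diamonds mark the 3 libraries, at 5.20 to 5.42 in the left panel and 4.20 to 4.32 in the right, and blue circles the other 11, at 4.02 to 4.60 and 3.79 to 4.11.

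A gene is said to stand higher, or lower, in the 3 libraries when its fitted log2 fold change is at least 1 in size and its CPM does not overlap between the 3 and the 11. Of 22560 genes tested, 299 (1.33%) stood higher and 119 (0.527%) stood lower. The counts depend on scaling and on single libraries, with 369 higher and 4 lower on the TPM scale and 976 and 635 without replicate 1 of the control after CSM. Of the 26 tested p53 targets, 10 stood higher and 0 lower, beside that background of 1.33%. Their median log2 fold change was 0.91, against 0.02 over all genes, and 21 of 26 were above 0. Since p53 targets chose the libraries, nothing is read from these counts beyond which targets carried the pattern. The other 2 members, PHLDA3 and TP53INP1, were left out by the filter on low counts, with at most 0.932 and 0.310 CPM in any library. All 26 tested members also passed that filter when only the 11 libraries were considered.

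Cell cycle genes included the first marker. CDKN1A (ENSG00000124762, chromosome 6, 36676460 to 36687339), the p21 inhibitor of cyclin-dependent kinases, was at 314.1, 233.7 and 138.8 CPM in the 3 libraries. In the 11 it ran from 19.7 to 64.4 CPM with a median of 55.4. The groups did not overlap, the lowest of the 3 being above the highest of the 11, and the log2 fold change was 2.30 (SE 0.30). BTG2, an antiproliferative cofactor, was at 6.32, 5.12 and 7.16 CPM against 1.19 to 2.67 (log2 fold change 1.66, SE 0.27). GADD45A, a stress sensor that binds CDK1 and PCNA, was at 57.6, 73.1 and 91.8 CPM against 17.0 to 44.6 (1.30, SE 0.24). The other cell cycle members overlapped between the groups, from PLK3 at 0.73 through CCNG1 at 0.10 to SFN, the 14-3-3 sigma gene, at -0.74 with an SE of 0.77.

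MDM2 and the other genes that act back on p53 were next. MDM2 (ENSG00000135679, chromosome 12, 68808176 to 68850686) was at 400.4, 367.7 and 502.9 CPM, while the 11 ran from 70.8 to 157.5 CPM with a median of 110.3. It did not overlap, and its log2 fold change was 2.03 (SE 0.19). Unlike CDKN1A, which was highest in replicate 3 of the FASN knockdown, MDM2 was highest in replicate 1 of the FASN knockdown after CSM. ZMAT3, an RNA-binding zinc finger protein, was at 160.5, 103.4 and 121.3 CPM against 43.0 to 103.0. It did not overlap, but its log2 fold change of 0.99 lay just outside the minimum of 1, where GADD45A was the member just inside. PPM1D, the WIP1 phosphatase that switches p53 signalling off, overlapped (0.44, SE 0.21).

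The MDM2 gene has an upstream promoter and the p53-responsive promoter shown above. Transcripts from the upstream promoter (6 transcripts of GENCODE 29, starts from 68808176 to 68808464) summed to 49.5, 48.1 and 65.2 TPM in the 3 libraries, against 3.44 to 21.1 TPM in the 11. TPM is Salmon's level per transcript length, scaled to a common total without TMM factors. Transcripts assigned to the second promoter by annotated start alone (22 transcripts, starts from 68809002 to 68809227) summed to 76.3, 35.4 and 265 TPM against 3.42 to 20.5. Both sums were thus higher in each of the 3 libraries than in any of the 11. The second promoter's percentage of both was 60.6, 42.4 and 80.2 in the 3 libraries, and from 15.5 to 64.9 (median 49.8) in the 11, so that only replicate 1 of the FASN knockdown after CSM was outside that range. In replicate 1 of the FASN knockdown after CSM most of the second sum lay on the short transcripts MDM2-208 (99.6 TPM) and MDM2-203 (64.9 TPM). Both have an annotated start at 68809212, and whether that start marks the second promoter was not tested. How Salmon divides reads among such overlapping transcripts is uncertain.

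**Figure D2:**
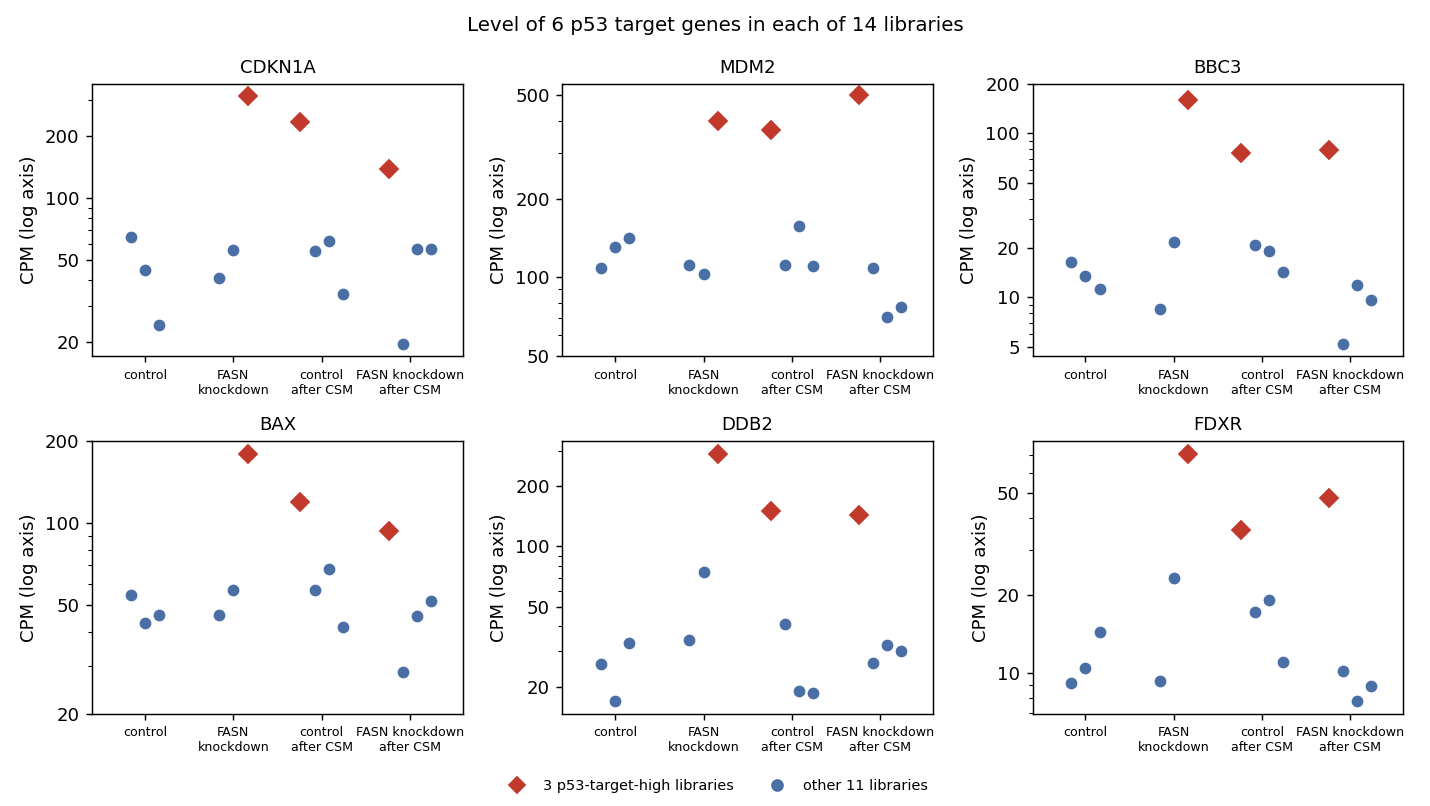
CPM (log axis) of CDKN1A, MDM2, BBC3, BAX, DDB2 and FDXR in each of the 14 libraries, with 1 point a library by group. The red diamonds of the 3 libraries lie above all blue circles of the other 11 in every panel, for CDKN1A at 138.8 to 314.1 against 19.7 to 64.4 CPM.

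Of the cell death genes, BBC3, BAX and AEN stood higher and 5 others did not. BBC3 (ENSG00000105327, chromosome 19, 47220822 to 47232766) encodes PUMA, a BH3-only protein that sets off apoptosis. It was at 158.6, 76.0 and 78.7 CPM, and in the 11 from 5.23 to 21.7 CPM with a median of 13.5. This was the largest log2 fold change among the p53 targets that did not overlap, 3.03 (SE 0.31). BAX, the pore-forming member of the BCL2 family, was at 179.1, 119.7 and 93.4 CPM against 28.3 to 67.7 (1.45, SE 0.21). AEN, an apoptosis-enhancing nuclease, was at 122.2, 79.4 and 101.9 CPM against 23.3 to 51.9 (1.61, SE 0.19). The death receptor TNFRSF10B did not overlap either, at 227.6, 228.2 and 170.1 CPM against 91.8 to 169.1, with a log2 fold change of 0.82. PMAIP1, which encodes the BH3-only protein NOXA, was at -0.15, TP53I3 at -0.04 and PERP, a membrane protein of desmosomes, at -0.21. PMAIP1 differed from its group by -1.82, 0.70 and -0.19 in log2 CPM in the 3 libraries, so that it lay above its group, as BBC3 did, in replicate 1 of the control after CSM.

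DNA repair targets differed widely. DDB2, which recognises ultraviolet damage for nucleotide excision repair, was at 290.4, 150.9 and 142.8 CPM, with 16.9 to 74.8 CPM and a median of 30.1 in the 11. It did not overlap and had a log2 fold change of 2.54 (SE 0.27). XPC, the other damage sensor of that pathway, was at 63.9, 44.7 and 59.8 CPM against 32.0 to 47.9, which overlapped (0.48, SE 0.15). RRM2B, a subunit of ribonucleotide reductase, was at 0.13 (SE 0.27). POLH, the polymerase that copies past ultraviolet lesions, was at -0.27 (SE 0.19).

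Metabolic and redox targets were led by FDXR, the mitochondrial ferredoxin reductase, at 71.1, 36.0 and 47.8 CPM against 7.77 to 23.4 (log2 fold change 2.04, SE 0.30). SESN1, a sestrin that restrains mTORC1, was at 22.5, 21.6 and 26.8 CPM against 6.32 to 13.4 (1.56, SE 0.19). Its relative SESN2 was at 50.3, 56.7 and 36.5 CPM and overlapped with the 11, whose highest value was 44.6 (1.26, SE 0.31). TIGAR, which lowers glycolytic flux, was at 0.30 (SE 0.23). GDF15, a secreted stress cytokine, had the largest fitted value, 4.01 (SE 0.55), on low counts. It was at 6.99, 9.25 and 0.916 CPM against 0 to 1.69, so that the third library lay inside the range of the 11.

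**Figure D3:**
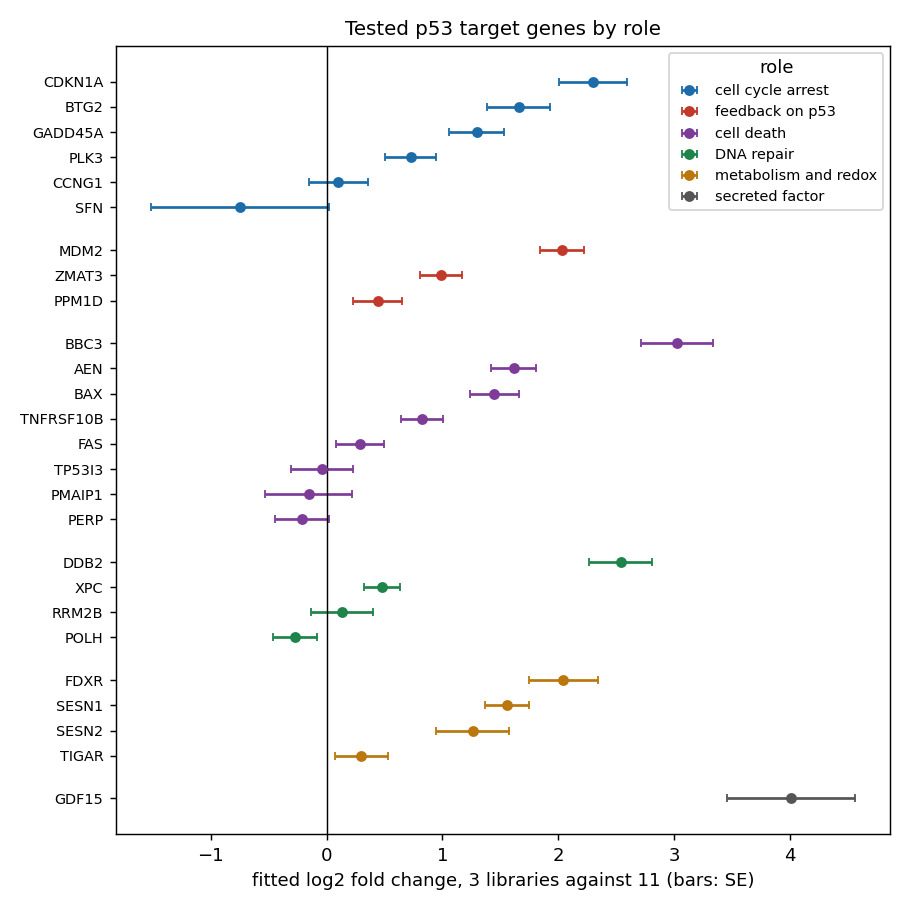
Fitted log2 fold change of the 3 libraries against the other 11 (horizontal axis) for each of the 26 tested p53 targets, coloured by role, with bars of 1 SE on each side. Values run from -0.74 for SFN to 4.01 for GDF15, and each role with more than 1 gene holds members near 0 beside members above 1, except feedback on p53, whose lowest member is PPM1D at 0.44.

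In the further list, 4 of 80 tested members stood higher and 0 lower, again beside 1.33% and 0.527% of all genes. The median log2 fold change was 0.18 and 49 of 80 were above 0. The 4 were TNFRSF10C, ANKRA2, FBXO22 and PIDD1. TNFRSF10C, a decoy receptor for TRAIL, was low, at 3.38, 2.92 and 2.72 CPM against 0 to 2.05 (1.62, SE 0.54). ANKRA2, an ankyrin repeat protein, was at 16.01, 10.9 and 9.79 CPM against 3.44 to 8.45 (1.24, SE 0.24). PIDD1, the scaffold of a complex that activates caspase-2, was at 48.0, 33.3 and 30.1 CPM against 10.2 to 26.7 (1.09, SE 0.26, and 0.72 without replicate 3 of the FASN knockdown). FBXO22, an F-box protein, was at 76.5, 45.4 and 120.7 CPM against 26.2 to 44.98 (1.17, SE 0.22), but its direction turned to -0.41 with an offset for effective length.

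Without a minimum fold, 9 of the 80 did not overlap in the higher direction, beside 2.46% of all genes. They were these 4 and ARVCF, HSPA4L, REV3L, SUSD6 and VWCE, at log2 fold changes of 0.61 to 0.92. TM7SF3, at -0.79, was the 1 member that did not overlap in the lower direction, beside 1.93% of all genes. Of the 84 members, 4 were not tested because of low counts. SPATA18 passed the filter only with the 3 libraries included, and it is counted among the 80. The further targets were also not alike in the 3 libraries. Their median difference from the other libraries of the same group, in log2 CPM, was -0.03, 0.26 and 0.18, while for the first list it was 0.93, 1.02 and 0.95.

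The p53 relatives TP63 (-0.68, SE 0.84) and TP73 (-0.01, SE 2.00) varied widely between libraries. Of 21 tested p53 family members and regulators, 0 stood higher or lower, 6 were above 0 and the median was -0.27. The TPM scale turned that median to 0.39, beside 0.36 for all genes. CREBBP, an acetyltransferase that acts on p53, was the member without overlap, at 413.8, 263.7 and 239.7 CPM against 123.9 to 231.6 (0.67, SE 0.21). MDM4, the inhibitory partner of MDM2, was at 0.29 (SE 0.16).

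Genes of DNA replication mostly lay below 0, as did those of other lists. Over all genes 11609 of 22560 were above 0. For ribosomal protein genes it was 2 of 52, for oxidative phosphorylation 3 of 37 and for cholesterol synthesis 2 of 22. Of 23 tested DNA replication and G1/S genes, 22 were below 0 with a median of -0.70, and 2 stood lower, beside 0.527% of all genes. GINS2, a subunit of the replicative helicase, was at 2.71, 4.57 and 5.41 CPM against 6.73 to 18.5 (-1.36, SE 0.36). RFC4, a subunit of the clamp loader, was at 5.44, 15.5 and 8.28 CPM against 15.7 to 34.3 (-1.26, SE 0.28). On the TPM scale both were smaller in size than the minimum of 1, at -0.33 and -0.42, and so was RFC4 without replicate 3 of the FASN knockdown (-0.92). MCM3 and MCM7 of the helicase ring did not overlap either, at -0.92 and -0.77. In each of the 3 libraries the list lay below the other libraries of its group, with median differences of -1.21, -0.67 and -0.48. On the TPM scale the list's median was 0.00 beside 0.36 for all genes, so that the list remained below all genes but not below 0. The 24 DNA repair and checkpoint genes had a median of -0.59, which the TPM scale turned to 0.19, below all genes there, with 0 standing lower. The 25 mitosis genes had a median of -0.23, which the TPM scale turned to 0.47, above all genes there.

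CDK4, a kinase of the G1 phase, was chosen after its values had been seen. It stood lower, narrowly in replicate 1 of the control after CSM. It was at 52.1, 121.3 and 74.8 CPM against 122.9 to 384.0 (-1.43, SE 0.28, and -0.82 on the TPM scale). The 10 protein-coding genes outside the p53 lists with the largest negative values held 4 genes of histone H4. H4C14 was at 35.4, 73.5 and 54.6 CPM against 95.8 to 604.9 (-2.12, SE 0.50), and H4C12, H4C13 and H4C9 were at -2.02, -1.81 and -1.73. Counted by gene symbol, 5 of 12 tested H4 genes stood lower, and of 71 histone genes 6 stood lower and 62 were below 0. Over all genes 0.527% stood lower, and 11609 of 22560 were above 0. Of 17 tested genes on the list of replication-dependent histones, 1 stood lower, H4C14, and 3 were above 0. That list's median was -0.36, and -0.02 without replicate 1 of the FASN knockdown after CSM. On the TPM scale it turned to 0.25, beside a median of 0.36 for all genes there. The list's median differences within groups were -0.15, -0.29 and -1.17. Histone genes are near copies of each other, so the division of counts among them is uncertain. The other members were FGF1 (-2.10), ZNF239 (-1.73), WNT10B (-1.65), THNSL1 (-1.64), the gene model ENSG00000268643 (-3.63) and HSPE1-MOB4. HSPE1-MOB4, a read-through of the neighbouring HSPE1 and MOB4 genes, had 0 counts in the 3 libraries and 1753 in the 11. Against a floor of 3 counts over the 3 libraries together it was at least 156.5-fold lower, and counts of a read-through cannot be separated cleanly from those of both neighbours.

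**Figure D4:**
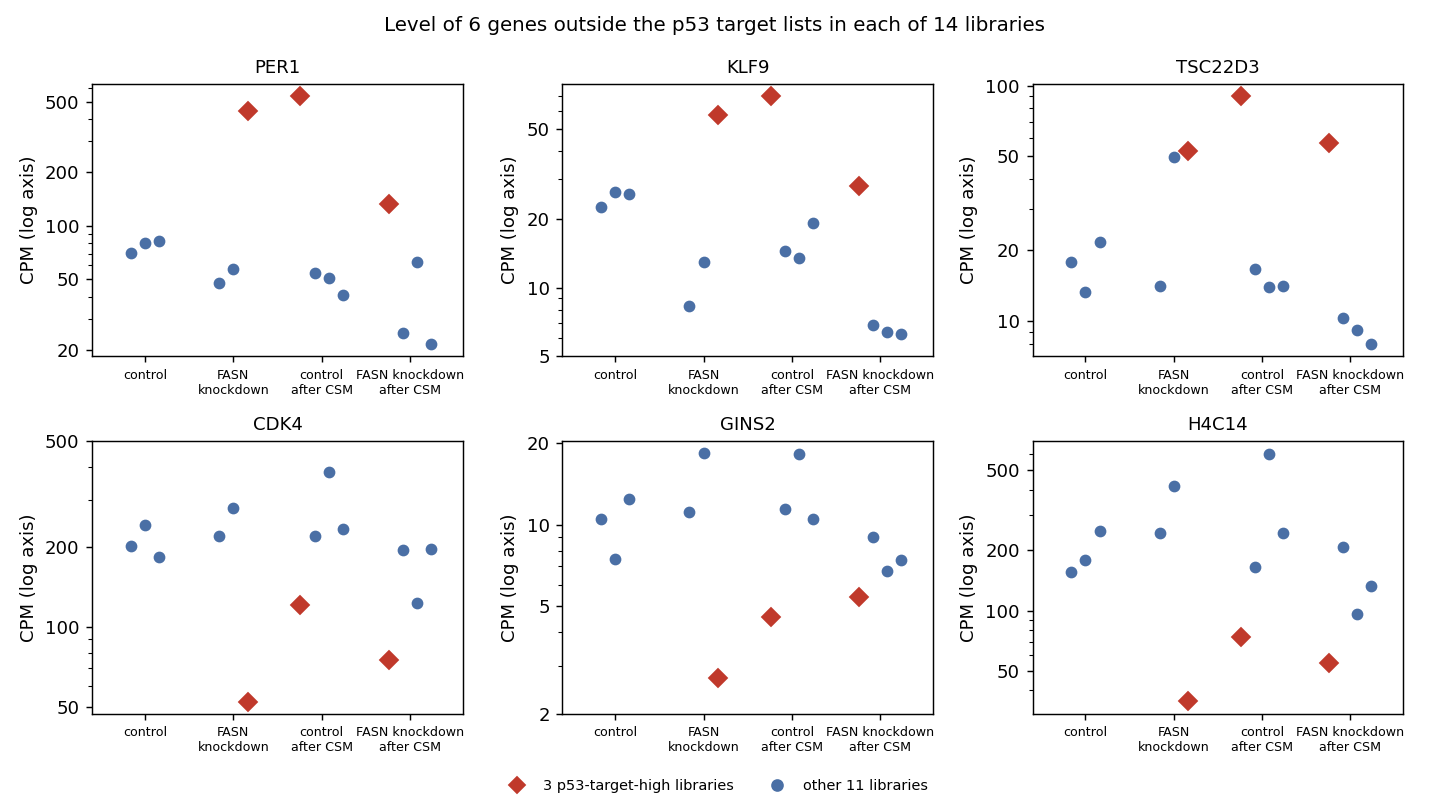
CPM (log axis) of PER1, KLF9, TSC22D3, CDK4, GINS2 and H4C14, none of them on a p53 target list, in each of the 14 libraries by group. Red diamonds mark the 3 libraries, which lie above all others in the upper row (PER1 at 133.2 to 538.3 against 21.8 to 82.7 CPM) and below all others in the lower row (CDK4 at 52.1 to 121.3 against 122.9 to 384.0 CPM).

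Outside the p53 lists, the 10 protein-coding genes with the largest positive values included 3 that glucocorticoids are known to induce. PER1, a repressor of the circadian clock, was at 443.5, 538.3 and 133.2 CPM, and in the 11 from 21.8 to 82.7 CPM with a median of 54.5 (2.93, SE 0.26). KLF9, a Krüppel-like transcription factor, was at 57.5, 70.0 and 28.0 CPM against 6.22 to 26.4 (2.25, SE 0.15). TSC22D3, which encodes the anti-inflammatory protein GILZ, was at 52.7, 90.2 and 57.0 CPM against 8.01 to 49.6 (2.22, SE 0.35). All 3 genes were highest in replicate 1 of the control after CSM. With the 3 libraries as a covariate, KLF9 also fell with knockdown (-1.24, edgeR adjusted p = 0.000125). The genotypes overlapped, at 13.5 to 70.0 CPM (median 22.6) in control-cell libraries and 6.22 to 57.5 CPM (median 8.30) in knockdown libraries. KLF9 was named for its difference in the 3 libraries, so this value is conditional on that covariate. PER1 and TSC22D3 did not pass that test (edgeR adjusted p = 0.132 and 0.787). The other 7 were ADAMTS7 (3.18), ASIC3 (2.51), ISYNA1 (2.34), CCDC17 (2.24), TNXB (2.14), SCX (2.02) and PAQR6 (1.92), each with its highest level in replicate 3 of the FASN knockdown. With an offset for effective length TNXB was at 0.66. The lncRNA PURPL, known as a p53-induced transcript and chosen here after its values had been seen, was at 435.6, 307.7 and 616.0 CPM against 98.9 to 265.3 (1.46, SE 0.26). Of the 299 genes that stood higher, 164 were protein coding, and 159 had a mean below 2 CPM. Of the 119 that stood lower, 102 were protein coding and 21 had such a mean.

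The 3 libraries were not alike over the rest of the transcriptome. Each library's difference from the other libraries of its own group was computed for 22454 genes outside both p53 lists. For replicate 3 of the FASN knockdown these others were only replicates 1 and 2 of that group. Its replicate 2 had the lowest summed counts (15810287) and the highest 7SL share (25.6%) of the 14. Replicate 3 of the FASN knockdown and replicate 1 of the control after CSM had the same sign in 71.1% of genes, with Pearson's r = 0.448 across genes. For replicate 3 of the FASN knockdown and replicate 1 of the FASN knockdown after CSM the share was 60.0% (r = 0.154), and for the third pair 56.2% (r = 0.0843). Genes are not independent replicates, and depth and RNA make-up of each library enter all of these values. Hypoxia genes (14 tested) had median differences of -1.04, 1.14 and -0.07, and NF-kB and inflammation genes (15 tested) of -0.35, 1.14 and -0.35. Both lists were thus above their group in replicate 1 of the control after CSM alone, with VEGFA, the vascular growth factor, at 508.9 CPM there against 69.0 and 177.5 CPM in the other two. Cholesterol synthesis genes (22 tested) had -1.47, 0.13 and -0.74, and 1 of them stood higher, beside 1.33% of all genes. It was TM7SF2, a sterol reductase (1.09, SE 0.37, and 0.74 without replicate 3 of the FASN knockdown). Interferon response genes had a median of -0.58 and ribosomal protein genes of -0.34 over the fit, and 0 of either stood apart. The TPM scale turned these medians to 0.15 and 0.26, which remained below the median of all genes on that scale, 0.36.

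Immediate early genes, which growth signals and tissue handling induce within minutes, were all above 0 in the fit (12 of 12, median 1.08), yet 0 of them stood higher. EGR1, a zinc finger transcription factor, was at 1055, 435.4 and 135.5 CPM against 30.4 to 174.2, so that the third library lay inside the range of the 11. The list's median differences within groups were 1.28, 1.75 and 0.19. Mitochondrially encoded genes, 12 of 13 above 0 with a median of 0.56, had 1.81, 0.78 and -0.12. The 1.81 is relative to replicates 1 and 2 of the FASN knockdown. That replicate 2 had the lowest share of mitochondrially encoded counts of the 14 libraries, 0.302%.

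**Figure D5:**
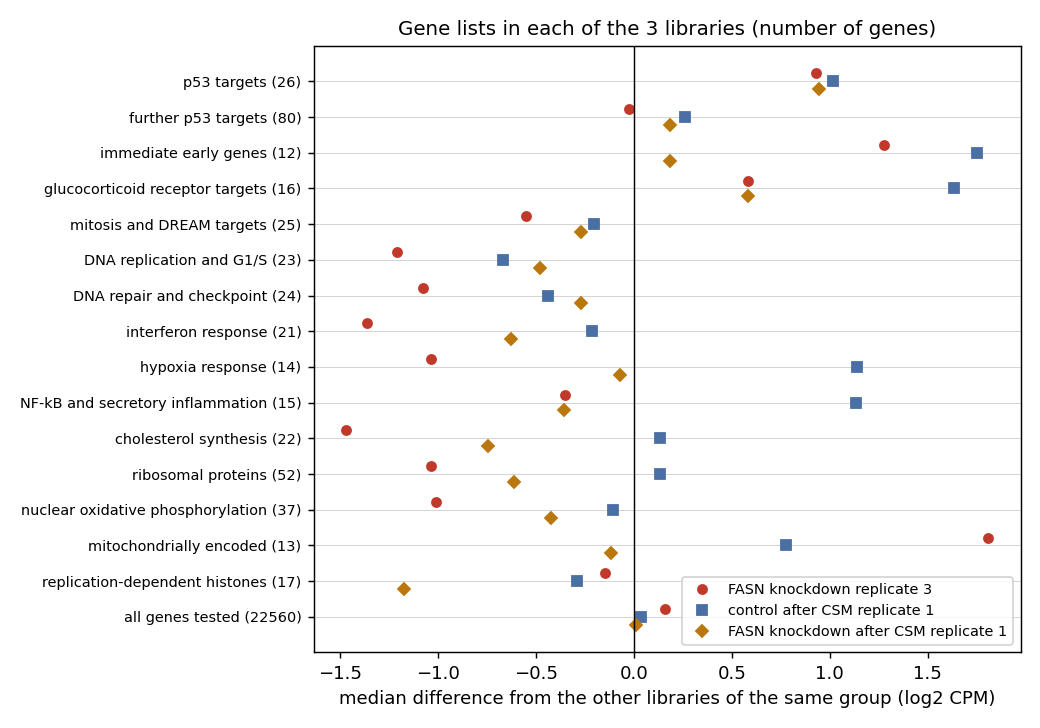
Median difference in log2 CPM between each of the 3 libraries and the other libraries of its own group (horizontal axis) over the tested genes of each list, with the number of genes in brackets. The list of glucocorticoid receptor targets was added after values had been seen. The p53 targets lie at 0.93 to 1.02 in all 3 libraries, DNA replication genes at -1.21 to -0.48, and hypoxia genes from -1.04 to 1.14.

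RNA make-up moved with the 3 libraries in part. The 7SL RNA, part of the signal recognition particle, took 3.89%, 4.20% and 2.73% of counts, at the low end of the 2.64% to 25.6% (median 8.66%) of the 11. Retained intron transcripts took 7.11%, 6.08% and 8.88% against 3.14% to 7.52% (median 5.23%), and mitochondrially encoded genes 3.00%, 1.35% and 1.76% against 0.302% to 2.74%. Replicates 3 and 4 of the FASN knockdown after CSM had 2.64% and 2.67% 7SL and 7.52% and 6.82% retained introns, and their p53 target means, 4.03 and 4.02, were the lowest of the 14. The median log2 fold change of the p53 targets was 0.92 with the 7SL share as a covariate and 0.95 with the retained intron share. The counts of genes standing apart were 204 higher and 61 lower with the first, and 196 and 65 with the second.

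Mouse transcripts were not quantified, and host markers were counted only as far as reads fitted human transcripts. The summed level of 14 fibroblast and matrix markers was 170.7 to 226.7 CPM in the 3 libraries and 81.0 to 206.5 CPM in the 11. For 9 endothelial markers it was 9.31 to 12.8 against 10.8 to 36.3 CPM, for 10 myeloid and leukocyte markers 46.1 to 105.5 against 57.6 to 112.6 CPM, and for 6 skin markers 14.8 to 37.3 against 23.7 to 67.9 CPM. Adipocyte, skeletal muscle and erythroid markers summed to at most 2.79, 1.09 and 0.495 CPM in any library. TYROBP and HBB had 0 counts in all 14 libraries. The part of host cells in the differences was not tested. Of 13 tested epithelial and urothelial genes and 16 mesenchymal genes, 0 stood apart.

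CDKN1A and MDM2 did not pass the tests of FASN knockdown and CSM, the conditions of the study. These tests compared genotype and medium over all 14 libraries with the 3 libraries as a covariate. Since p53 target levels chose that covariate, the values for p53 targets are conditional on it. Values without it are given for CDKN1A, MDM2, EDA2R and GDF15 and for the counts of both p53 lists. CDKN1A ran from 24.1 to 233.7 CPM (median 55.4) in 7 control-cell libraries and from 19.7 to 314.1 CPM (median 56.4) in 7 knockdown libraries. Its log2 fold change with knockdown was -0.06 (SE 0.27, edgeR adjusted p = 0.934). MDM2 ran from 108.3 to 367.7 CPM (median 131.4) and from 70.8 to 502.9 CPM (median 108.5), with -0.30 (edgeR adjusted p = 0.34). Without the covariate the values turned to 0.40 for CDKN1A and 0.31 for MDM2 (edgeR adjusted p = 0.746 and 0.736). Neither passed with other scaling factors, DESeq2, the length offset, TPM, the replicate block or any 1 library left out. After CSM, CDKN1A had a median of 56.7 CPM in 8 libraries against 50.3 in 6 from regular medium (-0.13, SE 0.27), and MDM2 110.8 against 121.7 CPM (-0.13, SE 0.16, turned to 0.21 without the covariate). Without the covariate CDKN1A was at -0.01 for CSM. Both genes had an edgeR adjusted p of 0.9999 for CSM. CSM called 0 of 22560 genes in edgeR (0% of genes), with 721 at an unadjusted p under 0.05 and 5 called by DESeq2, and 0 members of either p53 list were called by edgeR or DESeq2.

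With knockdown, 1000 of 22560 genes were called by edgeR at an adjusted p under 0.05 (4.43%), 1.76% of genes higher and 2.68% lower. Of 26 p53 targets 1 rose and 2 fell, and of 80 further targets 1 rose and 2 fell. Without the covariate 1 of the 26 rose and 1 fell, and 1 of the 80 rose and 3 fell, beside 973 calls over all genes. The median knockdown log2 fold change of the 26 was -0.12 with the covariate and 0.17 without it. In DESeq2 1 of the 26 rose and 3 fell, and 6 of the 80 rose and 5 fell, beside 2129 calls over all genes. Without the 3 libraries 0 of the 26 were called, and of the 80 0 rose and 2 fell. Without the 3 libraries the count over all genes was 324, and without replicate 1 of the control after CSM alone it was 334. EDA2R, a receptor of the TNF family, fell most. It was at 1.48 to 6.65 CPM (median 2.28) in the control-cell libraries and at 0 to 1.37 CPM (median 0.171) in the knockdown libraries, which did not overlap (log2 fold change -4.05, edgeR adjusted p = 0.00112). Its call was kept with other scaling factors, DESeq2, the length offset, TPM, the replicate block and each library left out, with -4.30 (edgeR adjusted p = 0.00869) without the 3 libraries and -3.07 (edgeR adjusted p = 0.0379) without the covariate. The calls of the others were lost without the 3 libraries. FAS, the death receptor, rose from a median of 23.0 to 38.7 CPM (0.69, edgeR adjusted p = 0.0305, and 0.0576 without the 3 libraries). PERP fell from a median of 74.7 to 35.1 CPM (-0.88, edgeR adjusted p = 0.0166, and 0.093 without them). GDF15 fell from a median of 1.58 to 0.205 CPM (-2.72, edgeR adjusted p = 0.0153, and 0.0636 without them), and it was highest in replicate 1 of the control after CSM. Without the covariate for the 3 libraries GDF15 was at -1.48 and was not called (edgeR adjusted p = 0.519). TRIM22, an interferon-induced ubiquitin ligase, rose (1.49, edgeR adjusted p = 0.0194, and 0.0598 without them), and CYFIP2, a regulator of actin assembly, fell (-1.79, edgeR adjusted p = 0.0145, and 0.0721 without them). Leaving out replicate 1 of the control after CSM alone ended the calls of PERP, GDF15 and CYFIP2, leaving out replicate 2 of the knockdown after CSM that of TRIM22, and the call of FAS was lost in 8 of 14 such fits. The replicate block ended the calls of PERP (edgeR adjusted p = 0.058), GDF15 (0.0588) and TRIM22 (0.0699). The length offset ended those of FAS (edgeR adjusted p = 0.212) and CYFIP2 (-0.84, 0.378), and the TPM scale those of all but EDA2R. All 6 genes overlapped between the 3 libraries and the 11, GDF15 and EDA2R with fitted log2 fold changes of 4.01 and 2.58 there.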

How the data were processed

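The members, gene lists and comparisons were chosen with earlier results of these data known. RNA was isolated from frozen xenograft tissue, per the labels' protocols. The submitters' processing notes list FastQC, cutadapt, Salmon and GRCh38. Their versions, settings, annotation release and library strand were not given in the sources used here. For each library the authors deposited Salmon's expected counts, unnormalised estimates of the reads of each transcript. The TPM values deposited beside them are scaled to transcript length and library total. All 252048 transcripts are human.

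Expected counts were summed to 62749 genes and rounded. edgeR 4.0.16 (R 4.3.3) with TMM factors and filterByExpr (minimum count 10, minimum total 15) kept 22560 genes. Its quasi-likelihood fit over 14 libraries had terms for genotype, medium and the 3 libraries, with a biological coefficient of variation of 0.414. Genotype and medium were tested with Benjamini-Hochberg adjustment over all genes at 0.05, and p-values measure the spread between libraries, which may be technical. Log2 CPM used a prior count of 2. Named were CDKN1A, MDM2, TP63, TP73, FASN, the p53 targets by role, up to 10 further targets and 10 protein-coding genes each way standing apart at a mean of 2 CPM or more, up to 3 members of each other list standing apart, and up to 5 p53 list members called in a condition test; other genes are said to be chosen later, and some results are not reported here. Gene coordinates and MDM2 starts are from GENCODE 29 (GRCh38), promoter windows from RefSeq. Alternatives used DESeq2 1.42.0, limma 3.58.1 on log2(TPM + 1), other factors, filters and covariates, a replicate block, and each library left out. The fits were tested on simulated data.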

Additional observations from a re-analysis of the deposited data

Results flagged for a closer look

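Single libraries were compared with the others of their group in the 2 groups of 4, as the gap to the nearest library divided by the range of the group. Of 134 such groups over 67 measures, 31 passed Dixon's value for 4 libraries, 27 of them at 1 of the 3 libraries. Chance alone passes about 1 group in 20, but this rate is no yardstick here. The p53 targets chose the 3 libraries, and the other genes were named for their difference in the same libraries, so the passes at the 3 libraries are a description.

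In replicate 1 of the FASN knockdown after CSM the gap was 0.944 of the range for the mean log2 CPM of p53 targets (5.20, next 4.09). It was 0.948 for DDB2, 0.939 for FDXR, 0.93 for SESN1, 0.913 for MDM2, 0.91 for BBC3, 0.889 for AEN, 0.883 for BTG2, 0.871 for FBXO22 and 0.848 for GADD45A, all high. Outside the p53 lists it was 0.972 for KLF9, 0.954 for TSC22D3, 0.927 for ADAMTS7, 0.92 for SCX and 0.84 for TNXB, all high.

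In replicate 1 of the control after CSM it was 0.909 for TNFRSF10C, 0.902 for PMAIP1 (19.98 CPM, next 12.78), 0.894 for BBC3, 0.886 for GDF15, 0.861 for CDKN1A, 0.858 for SESN1 and 0.83 for DDB2, all high. Outside the p53 lists it was 0.973 for PER1 (538.3 CPM, next 54.5), 0.972 for ADAMTS7, 0.964 for TSC22D3 and 0.897 for KLF9, all high, and 0.843 for ZNF239, which was low.

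The other 4 were at libraries of the FASN knockdown after CSM outside the 3. In replicate 2, TP63 was high at 8.41 CPM against a next value of 0.710 (gap 0.955), FGF1 was high at 7.90 CPM (0.855) and the 7SL share was high at 11.3% (0.99). In replicate 4 the summed counts were high (0.87).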

How the results depend on the processing

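The median of the p53 targets was above 0 under every alternative run, from 0.77 without CDKN1A and MDM2 to 1.51 on log2(TPM + 1), where the median of all genes was 0.36. It moved by more than the spread between the 3 libraries without a filter on low counts (0.78), with 2 CPM required in 3 libraries (0.98), for protein-coding genes only (0.99), with upper-quartile factors (1.00) and with the length offset (1.12), and ran from 0.83 to 1.02 with 1 library left out. The further list ran from 0.11 without covariates to 0.68 on the TPM scale, and from 0.16 to 0.23 with 1 library left out. Between 10 and 13 p53 targets stood higher under these alternatives.

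Genes standing higher and lower (299 and 119) numbered 194 and 77 with the filter of 2 CPM, 199 and 65 for protein-coding genes only, 554 and 436 without a minimum fold, 78 and 14 at a log2 fold change of 2 or more in size, 347 and 78 with upper-quartile factors, 369 and 4 on the TPM scale, 204 and 61 with the 7SL covariate, and 196 and 65 with the retained intron covariate, which was added after the data were seen. With 1 library left out they ran from 286 to 976 and from 84 to 635. The top of both came without replicate 1 of the control after CSM, and 681 and 328 came without replicate 1 of the FASN knockdown after CSM and 317 and 84 without replicate 3 of the FASN knockdown. Each of these fits compared 2 libraries with 11, and the cause of their unlike counts was not tested. Without replicate 3 of the FASN knockdown after CSM 190 stood lower.

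Genes called for knockdown (1000) numbered 2129 in DESeq2, 1661 without a filter, 1666 with the 7SL covariate, 569 with the length offset, 88 on the TPM scale and 324 without the 3 libraries, and ran from 334 to 1151 with 1 library left out; the cause was not tested. Genes called for CSM (0) numbered 98 without a filter, 5 in DESeq2 and 1 with the 7SL covariate. The replicate numbers were shared by 19 pairs of libraries across groups, whose deviations correlated at -0.38 to 0.33, with 5 pairs over 0.1. The titles give only the number, and these values do not decide whether libraries sharing a number belong together. With the replicate block 344 genes were called for knockdown, 298 stood higher and 170 lower. Depth limits GDF15, EDA2R and TNFRSF10C, each with 0 counts in at least 1 library. Knockdown calls were higher for 396 of 1000 genes, for 549 of 943 with upper-quartile factors, 1056 of 2129 in DESeq2 and 22 of 88 on the TPM scale.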

Other observations

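Lists of metabolism and stress held few genes that set the 3 libraries apart. Of 13 tested fatty acid synthesis genes, 23 of fatty acid oxidation and 37 of oxidative phosphorylation, 0 stood higher or lower, with medians of -0.62, -0.13 and -0.44 that the TPM scale turned to 0.14, 0.44 and 0.21. Among 20 genes of the integrated and unfolded protein stress responses, PDIA4, a disulfide isomerase of the endoplasmic reticulum, stood lower, beside 0.527% of all genes. It was at 150.4, 257.5 and 263.2 CPM against 282.8 to 733.3 (-1.09, SE 0.35). Its value was below the minimum of 1 in size with upper-quartile factors (-0.98), without replicate 3 of the FASN knockdown (-0.74) and on the TPM scale (-0.38). Of 18 NRF2 targets, which respond to oxidants, 6 aryl hydrocarbon receptor targets, which respond to smoke compounds, and 12 genes linked to senescence, 0 stood apart. Their medians of -0.16, -0.13 and -0.32 turned to 0.34, 0.20 and 0.35 on the TPM scale. The median of all genes on that scale was 0.36, above all list medians of this paragraph there but that of fatty acid oxidation.

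After the values of PER1, KLF9 and TSC22D3 had been seen, 2 lists were added, and they are given as description only. Of 16 glucocorticoid receptor targets, all tested, 14 were above 0 in the 3 libraries against the 11 and the median log2 fold change was 0.94. Those 3 genes stood higher, beside 1.33% of all genes, and 0 stood lower. The list's median difference within groups was 0.58 in replicate 3 of the FASN knockdown, 1.63 for the control after CSM and 0.58 for the FASN knockdown after CSM. Without the control library among the 3 the median in the fit was 0.63. Members did not go together in each library. FKBP5, a chaperone that restrains the glucocorticoid receptor, was at 96.2, 125.6 and 151.6 CPM against 30.9 to 191.9. DUSP1, a phosphatase of MAP kinases, was at 33.9, 382.8 and 59.6 CPM against 28.4 to 105.7, high in 1 library. SGK1, a kinase of ion transport, was at 1.19, 12.5 and 3.55 CPM against 5.03 to 21.8. The receptor gene NR3C1 was at 109.4, 193.8 and 127.3 CPM against 128.6 to 243.5 (log2 fold change -0.37). On the TPM scale it turned to 0.16, beside a median of 0.36 for all genes.

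Of 14 circadian clock genes, PER1 stood higher and the other 13 overlapped. PER2 was at 0.12 (SE 0.18), PER3 at 0.20 (SE 0.22), DBP at -0.01 (SE 0.22) and NR1D2 at -0.52 (SE 0.28), and the list's median was 0.15.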
